A study of Mus musculus with 6 samples.

Results

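Genes for importing, folding and degrading mitochondrial proteins were followed in primary mouse vascular smooth muscle cells, which contract to set the width of arteries, after depletion of Sirt7. The set holds the genes named Timm or Tomm followed by a digit and 19 further genes listed by name, among them the matrix protease Lonp1 and the prohibitins. It came to 41 of the 11808 genes of the deposited table, with 65 transcripts, and 18 of the 19 listed names were found; Immp2l was not analysed here. Cells came from 6-week-old male C57BL/6 mice (the label writes 12*6-week-old) and were grown in medium with 10% serum. They received either a scrambled siRNA (siScrambled, genotype WT) or siRNA against Sirt7 (siSirt7, genotype Sirt7 knockdown), each at 20 nM in normal growth medium, and their mRNA was sequenced after 48 h, with 3 libraries in each group. Nothing in the labels ties replicates to separate cell isolations; p-values therefore describe only how much these libraries varied, which may be technical spread.

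Nearly all mitochondrial proteins are made in the cytosol and enter through the TOM complex of the outer membrane. From there the TIM23 complex and its ATP-driven motor pull presequence proteins into the matrix, the small Tim chaperones and the TIM22 complex deliver carrier proteins to the inner membrane, and the SAM complex inserts barrel proteins into the outer membrane. Presequences are cut off by processing peptidases, and AAA+ proteases such as LONP1 and CLPXP remove damaged or unassembled proteins in the matrix. Sirt7 encodes a nuclear NAD-dependent deacylase that others have linked to the mitochondrial unfolded protein response and to mitochondrial function.

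Levels are FPKM (fragments per kilobase of transcript, scaled to the mapped fragments of the library), summed over the transcripts of a gene, and 3 values in a row are replicates 1, 2 and 3. Fold changes are siSirt7 over siScrambled. A gene is said to have risen or fallen where limma, fitted on log2(FPKM + 1) over all 10854 genes averaging 1 FPKM or more, gave a Benjamini-Hochberg adjusted p under 0.05. The log2 fold changes understate changes of low genes. Summed over all transcripts the libraries held between 321944 and 333683 FPKM; read depth is unknown. Sirt7 stood at 4.35, 3.55 and 4.48 FPKM with siScrambled and at 0.96, 1.25 and 0.36 with siSirt7 (log2 fold change -1.49, SE 0.20, limma adjusted p = 0.00388). Its main transcript tested alone was not called (-1.30, limma adjusted p = 0.0697). All 7 smooth muscle markers were listed, with summed levels of 3370 to 3376 FPKM with siScrambled and 3136 to 3302 with siSirt7. Of these, the contractile genes Tagln, Cnn1 and Smtn fell (log2 fold changes -0.29, -0.39 and -0.39, limma adjusted p = 0.0024, 0.0026 and 0.0030) and Cald1 rose (0.17, adjusted p = 0.0070). None of 5 endothelial markers was listed. The 3 of 5 macrophage and leukocyte markers that were listed summed to 18.1 to 21.2 FPKM with siScrambled and 20.2 to 22.8 with siSirt7, and the 2 tested, Cd68 and Lyz2, had limma adjusted p of 0.237 and 0.699. The 4 mesothelial markers summed to 61.7 to 70.7 FPKM and to 56.2 to 61.9, with Upk3b lower (-0.20, limma adjusted p = 0.0147). The 5 markers of adventitial fibroblasts summed to 63.3 to 80.5 FPKM and to 72.4 to 75.6, with Pdgfra lower (-0.40, limma adjusted p = 0.0160). The part of these marker changes and of other cell types in the results below was not tested, and in these bulk samples fewer cells of a type and less RNA per cell cannot be told apart.

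The promoters below are shown because they carry the DNA words searched for in the set and because their genes include the firmest rises. Each is 250 bases before to 50 bases after the gene start in RefSeq (GRCm38.p6), written 5′ to 3′ on the gene's strand. Capitals mark CCGGAAG, the core word of ETS factors such as GABP, on either strand, and in Grpel1 also GCATGCG, the core of the NRF1 site. In Lonp1 they mark TGACNNNGC, the word of the antioxidant response element. Timm10, whose transcript was not called, is shown for contrast. The windows are chr14:32201842-32202141 (minus strand) for Timm23, chr16:57121464-57121763 (plus) for Tomm70a, chr5:36464935-36465234 (plus) for Grpel1, chr17:56626854-56627153 (minus) for Lonp1 and chr2:84826771-84827070 (plus) for Timm10.
Timm23: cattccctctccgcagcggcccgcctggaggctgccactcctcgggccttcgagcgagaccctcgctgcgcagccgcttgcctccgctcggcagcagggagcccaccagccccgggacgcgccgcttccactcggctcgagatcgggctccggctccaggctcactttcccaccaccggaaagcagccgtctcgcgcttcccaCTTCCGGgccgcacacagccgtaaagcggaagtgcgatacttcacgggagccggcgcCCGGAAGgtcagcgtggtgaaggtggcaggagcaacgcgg
Tomm70a: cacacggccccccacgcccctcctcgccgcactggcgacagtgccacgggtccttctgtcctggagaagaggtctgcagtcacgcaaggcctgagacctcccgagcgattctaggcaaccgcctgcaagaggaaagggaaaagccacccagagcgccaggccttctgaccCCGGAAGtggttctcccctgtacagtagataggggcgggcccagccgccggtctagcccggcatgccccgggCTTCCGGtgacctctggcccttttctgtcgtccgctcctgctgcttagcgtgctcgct
Grpel1: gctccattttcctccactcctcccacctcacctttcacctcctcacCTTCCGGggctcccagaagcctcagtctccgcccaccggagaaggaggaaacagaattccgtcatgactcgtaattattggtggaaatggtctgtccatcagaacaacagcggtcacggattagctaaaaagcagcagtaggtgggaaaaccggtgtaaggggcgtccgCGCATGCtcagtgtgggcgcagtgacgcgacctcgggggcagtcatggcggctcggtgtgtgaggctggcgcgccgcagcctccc
Lonp1: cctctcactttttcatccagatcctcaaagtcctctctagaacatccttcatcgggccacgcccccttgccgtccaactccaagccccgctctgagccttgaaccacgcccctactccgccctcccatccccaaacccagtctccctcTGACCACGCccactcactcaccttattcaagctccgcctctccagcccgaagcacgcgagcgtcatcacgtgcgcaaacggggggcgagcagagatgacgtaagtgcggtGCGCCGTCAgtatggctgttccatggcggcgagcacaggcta
Timm10: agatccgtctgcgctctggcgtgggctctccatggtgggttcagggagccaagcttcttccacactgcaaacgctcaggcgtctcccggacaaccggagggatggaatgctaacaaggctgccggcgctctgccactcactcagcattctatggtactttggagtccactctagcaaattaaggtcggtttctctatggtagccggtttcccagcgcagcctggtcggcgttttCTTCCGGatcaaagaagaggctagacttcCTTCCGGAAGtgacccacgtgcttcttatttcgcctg

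Of 36 members with a RefSeq promoter in the table used, 14 (38.9%) held CCGGAAG in at least 1 promoter, against 1838 of 8495 tested genes (21.6%) and 9.93% of all 27025 genes with a promoter. It was present in 5 of the 10 members that rose, Tomm70a, Timm23, Grpel1, Timm8b and Timm10b, in Timm29, which fell, and in 8 of 25 tested members that were not called. Among tested genes that rose it was found in 21.8%, next to 21.6% of all tested genes. The words begin 47 bases before and 10 bases after the start of Timm23, and 80 and 8 bases before that of Tomm70a. Timm10 holds 3, of which a pair overlap on opposite strands. GCATGCG was held by 3 of the 36 members (8.33%, against 7.66% of tested genes), namely Grpel1, Clpx and Timm13. TGACNNNGC was held by 2 (5.56%, against 17.0%), Lonp1 and Tomm20. These matches describe letters in a window and say nothing about binding.

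Members rose more often than they fell, and all changes were small. Of the 40 members tested, 10 rose (25.0%, against 12.7% of all tested genes), 1 fell (2.5%, against 12.5%) and 29 were not called. The shares over all tested genes include genes averaging 1 to 5 FPKM, while every member that rose averaged at least 10.0 FPKM. With the filter at 5 FPKM, 1241 of 7542 tested genes rose and 1046 fell, 10 and 1 of them members. The 10 that rose were Tomm6, Tomm70a, Timm23, Grpel1, Timm8a1, Timm8b, Timm10b, Samm50, Lonp1 and Trap1, by 1.15-fold to 1.52-fold, and Timm29 fell 1.25-fold. The median log2 fold change of the 40 was 0.12, next to -0.005 over all tested genes, with a range from -0.29 to 0.57. The groups did not overlap in 19 members (against 43.9% of all tested genes), 16 with siSirt7 above (against 21.8%) and 3 with siSirt7 below (against 22.1%). Summed over the 41 members, the level was 967.1, 932.8 and 924.7 FPKM with siScrambled and 1085, 1090 and 993.7 with siSirt7. The count of rises ran from 5 without siScrambled replicate 3, and 6 each without siScrambled replicate 2, siSirt7 replicate 1 and siSirt7 replicate 2, to 11 without siSirt7 replicate 3. Of the 11 calls, those of Tomm70a, Timm23, Samm50, Lonp1 and Trap1 were kept under all 15 alternative settings tried.

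**Figure D1:**
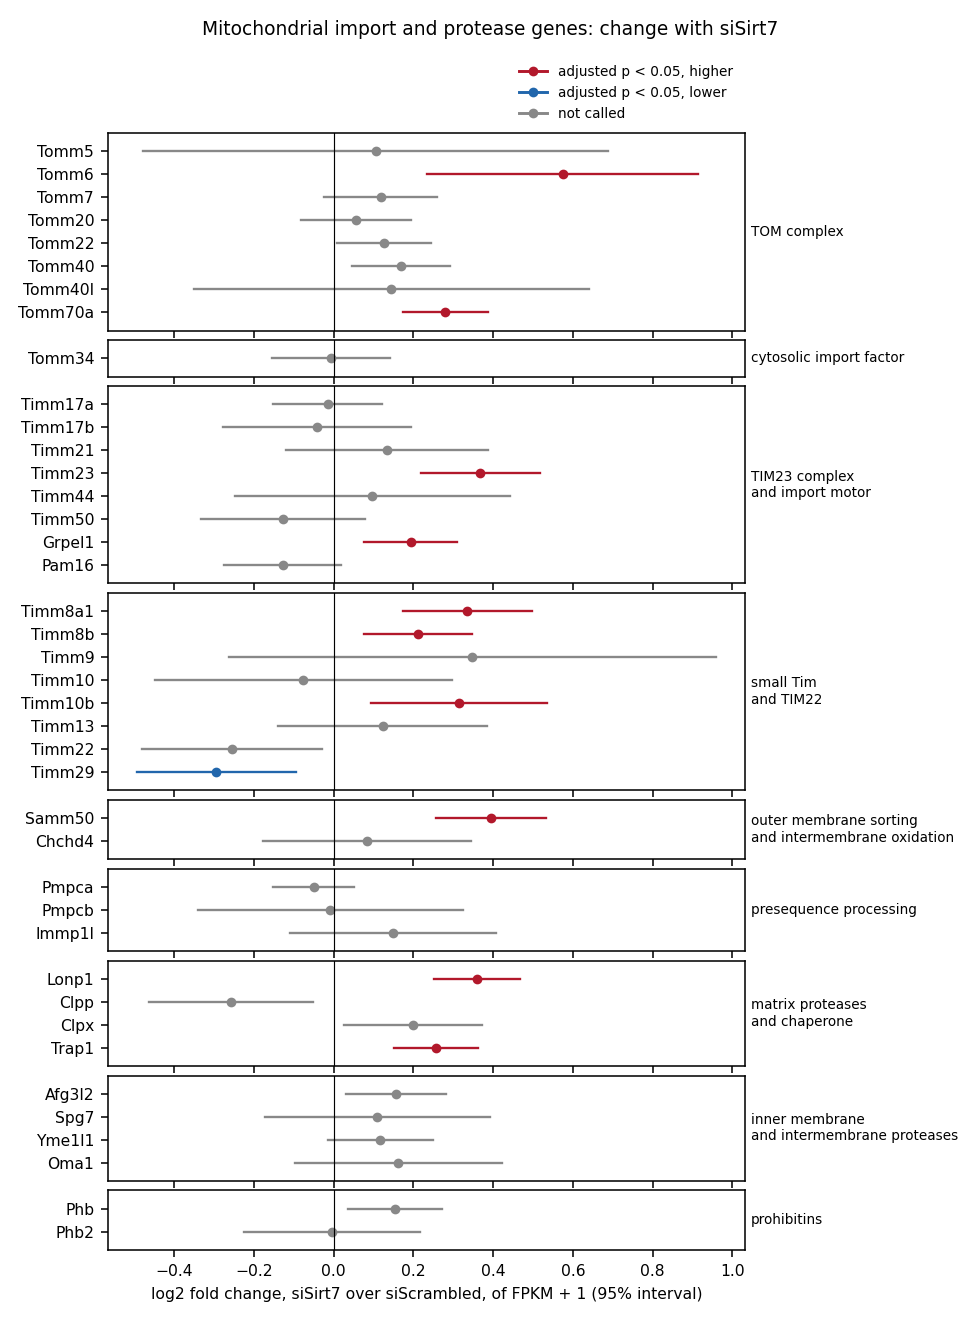
Log2 fold change of each of the 40 tested members (siSirt7 over siScrambled, on FPKM + 1) with its 95% limma interval, grouped by role; red marks members that rose, blue the one that fell and grey those not called. All 8 TOM genes lie right of 0, as do 5328 of all 10854 tested genes, but the intervals of Tomm5, Tomm7, Tomm20 and Tomm40l include 0. Timm22, Timm29 and Clpp lie left of 0 with intervals that exclude it.

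The entry gate of the outer membrane showed rises in 2 of 8 TOM genes (25.0%, against 12.7% of all tested genes) and falls in 0 (against 12.5%). Tomm70a, the receptor for carrier precursors and chaperone-bound proteins (chromosome 16, 57121714 to 57154530, plus strand, GRCm38), stood at 35.2, 34.0 and 36.5 FPKM with siScrambled and at 44.1, 43.6 and 41.4 with siSirt7. Every siSirt7 library lay above every siScrambled library, and the means rose 1.22-fold (log2 fold change 0.28, SE 0.04, limma adjusted p = 0.00658). Tomm20, the receptor for presequence proteins, stood at 74.1, 64.5 and 66.9 FPKM and at 72.6, 71.6 and 69.2, so that the groups overlapped (log2 fold change 0.06, 95% interval -0.08 to 0.19, adjusted p = 0.520). Within each library the log2 ratio of Tomm20 to Tomm70a was 1.05, 0.90 and 0.86 with siScrambled and 0.71, 0.70 and 0.73 with siSirt7. The groups lay apart, with a mean difference of -0.22 (two-sided exact permutation p = 0.1, the smallest that 3 against 3 allows, adjusted 0.5 over 10 ratios).

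Tomm40, the channel itself, was at 27.3 ± 0.79 and 30.8 ± 1.57 FPKM (SD, n = 3), with the groups apart but an adjusted p of 0.0574 from limma. Tomm22, the central receptor that docks the others on the channel, was at 36.5, 35.7 and 36.6 FPKM and at 41.0, 40.9 and 37.3. Its lowest siSirt7 library, replicate 3, lay just above the highest siScrambled one (log2 fold change 0.13, adjusted p = 0.110, and 0.0344 without siSirt7 replicate 3). Tomm40l, a paralog of the channel gene, was low at 3.19 ± 0.88 and 3.62 ± 0.90 FPKM (adjusted p = 0.646), and 80.7% of its main transcript overlaps exons of Nr1i3 on the opposite strand. The sources used here do not give whether counting used strand.

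Among the small TOM subunits, which steady the channel, 1 of 3 rose (against 12.7% of all tested genes). Tomm6 stood at 36.3, 30.5 and 31.3 FPKM with siScrambled and at 57.3, 51.6 and 40.0 with siSirt7, a 1.52-fold rise (log2 fold change 0.57, SE 0.14, limma adjusted p = 0.0304). All siSirt7 libraries were above the siScrambled ones, but much of the rise sat in Tomm6-202, which was at 7.23, 5.19 and 4.79 FPKM and at 20.8, 19.6 and 6.61. The main transcript, Tomm6-201, was at 29.1, 25.3 and 26.5 FPKM and at 36.5, 31.9 and 33.4, and tested alone gave 0.32 on the log2 scale (limma adjusted p = 0.0618). The gene's call was also lost without siScrambled replicate 2 (adjusted p = 0.0931), siScrambled replicate 3 (0.0893), siSirt7 replicate 1 (0.0707) and siSirt7 replicate 2 (0.0897). Tomm6-201 shares 90.9% of its bases with exons of Gm21981 on the same strand and 28.6% with Tomm6os on the other, so its reads cannot be assigned with certainty.

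Tomm5 was at 69.0, 72.3 and 60.7 FPKM with siScrambled and at 87.8, 89.0 and 48.3 with siSirt7. siSirt7 replicates 1 and 2 were the highest of the 6 libraries and siSirt7 replicate 3 the lowest (log2 fold change 0.11, SE 0.24, limma adjusted p = 0.784). The low library was low in 1 transcript, Tomm5-204, which was at 42.0, 56.1 and 37.3 FPKM and at 55.5, 54.4 and 12.8, while Tomm5-202 was at 24.3, 16.2 and 21.5 FPKM and at 29.4, 29.96 and 33.4. Without siSirt7 replicate 3 the log2 fold change of Tomm5 was 0.39 and its adjusted p 0.0291. Tomm7 was at 37.3, 39.5 and 39.2 FPKM and at 45.3, 39.5 and 41.3, with siSirt7 replicate 2 just above siScrambled replicate 2 and no call (adjusted p = 0.201). Tomm34, a cytosolic co-chaperone of import, was level at 15.8 ± 0.91 and 15.7 ± 0.67 FPKM (SD, n = 3; log2 fold change -0.006, 95% interval -0.15 to 0.14, adjusted p = 0.958).

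**Figure D2:**
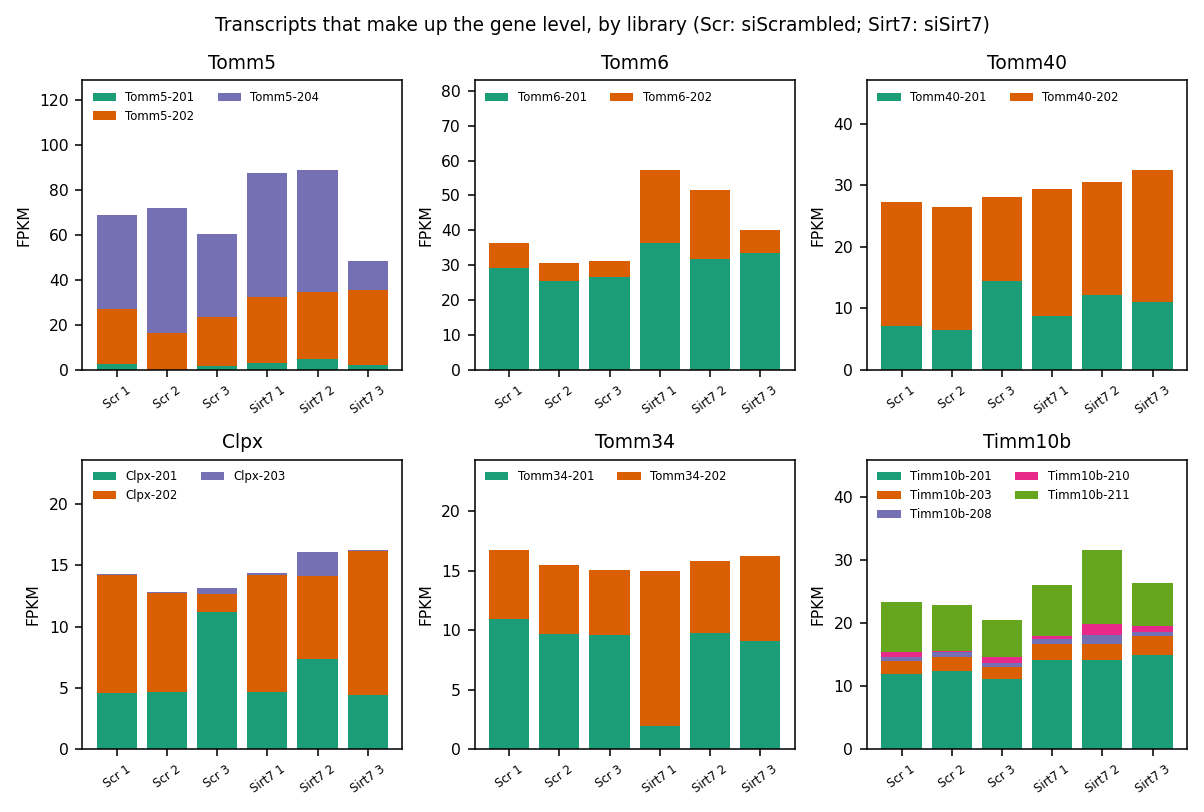
Level in FPKM of each listed transcript of 6 members in each library, stacked to the gene level. Tomm5-204 falls to 12.8 FPKM in siSirt7 replicate 3, Tomm34-201 to 1.91 FPKM in siSirt7 replicate 1, and Clpx-202 to 1.46 FPKM in siScrambled replicate 3, while the gene sums of Tomm34 and Clpx move little.

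Of 8 genes of the TIM23 complex and import motor, 2 rose (25.0%, against 12.7% of all tested genes) and 0 fell (against 12.5%). Timm23, the channel-forming subunit (chromosome 14, 32180162 to 32201898, minus strand), stood at 37.8, 34.1 and 32.2 FPKM with siScrambled and at 45.0, 45.3 and 44.6 with siSirt7. The siSirt7 libraries were nearly equal and all above the siScrambled ones, a 1.30-fold rise (log2 fold change 0.37, SE 0.06, 95% interval 0.22 to 0.52, limma adjusted p = 0.00793). Its transcript matches Gm10273 at 99.9% identity over 95.6% of its length. That copy was listed at 5.14 ± 0.53 and 5.78 ± 0.58 FPKM (adjusted p = 0.357), and with both summed the groups stayed apart, at 39.8 ± 3.28 and 50.8 ± 0.96 FPKM (SD, n = 3). Another 4 processed pseudogenes match at least 53.4% of the transcript at 95.4% identity or more and were not analysed here.

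Grpel1, the nucleotide exchange factor of the matrix HSP70 in the import motor, rose 1.15-fold, from 19.6, 18.2 and 18.3 FPKM to 21.2, 21.9 and 21.3 (log2 fold change 0.19, SE 0.05, limma adjusted p = 0.0325). The groups lay apart. Its adjusted p was 0.0995, 0.0968, 0.0682, 0.0948 and 0.0707 without siScrambled replicates 2 and 3 and siSirt7 replicates 1, 2 and 3, 0.0906 when replicate numbers were blocked, 0.0609 after quantile normalization and 0.0733 with transcripts tested alone. The other 6 genes of the complex and motor had log2 fold changes from -0.13 to 0.13 and adjusted p from 0.177 to 0.872. Timm17a and Timm17b, alternative partners of the channel, were at 8.54 ± 0.12 and 8.45 ± 0.34 FPKM and at 5.95 ± 0.59 and 5.76 ± 0.565. Their log2 ratio was 0.46 ± 0.12 with siScrambled and 0.49 ± 0.12 with siSirt7 (SD, n = 3; two-sided exact permutation p = 0.7). The presequence receptor Timm50 (7.15 and 6.45 FPKM), the motor tether Timm44 (16.8 and 18.0) and the coupling subunit Timm21 (9.905 and 10.999) overlapped between groups.

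Pam16, the regulatory J-like subunit of the motor, was at 20.4 ± 1.31 and 18.6 ± 0.615 FPKM (log2 fold change -0.13, limma adjusted p = 0.177). It matches Gm9803 at 100% identity over 89.6% of its transcript. With this copy added the levels were 25.4, 24.1 and 21.702 FPKM with siScrambled and 21.018, 21.023 and 21.693 with siSirt7, so that the groups lay only just apart, replicate 3 of each being nearly equal.

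Of 8 genes of the small Tim and TIM22 complexes, 3 rose (37.5%, against 12.7% of all tested genes) and 1 fell (12.5%, equal to the 12.5% of all tested genes). Timm8b, a chaperone subunit for inner membrane precursors and the most abundant member, stood at 91.7, 94.0 and 86.9 FPKM with siScrambled and at 108.2, 110.3 and 98.0 with siSirt7. It rose 1.16-fold (log2 fold change 0.21, SE 0.06, limma adjusted p = 0.0376), with the groups apart. Timm8a1, its close relative and the mouse counterpart of the human deafness-dystonia gene, rose 1.29-fold from 8.56, 9.19 and 8.49 FPKM to 10.9, 12.1 and 10.9 (log2 fold change 0.34, SE 0.07, adjusted p = 0.0143). A Gm9797 transcript matches 43.1% of Timm8a1 at 100% identity and was not analysed here. Timm10b went from 23.4, 22.8 and 20.6 FPKM to 26.0, 31.7 and 26.3 (log2 fold change 0.31, SE 0.09), and its adjusted p of 0.04997 lay at the threshold. Exons of Gm45799 on the same strand cover 53.0% of its main transcript.

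These calls were less steady than that of Timm23. Without siScrambled replicates 1, 2 and 3 and siSirt7 replicates 1 and 2 in turn, the limma adjusted p of Timm8b was 0.0894, 0.0645, 0.109, 0.102 and 0.105. It was 0.0669 after quantile normalization, 0.0678 without the trend and robust options and 0.0916 for the transcript tested alone. Timm8a1 missed the threshold without siScrambled replicate 1 (0.0504) and siScrambled replicate 3 (0.0506). Timm10b missed it in 13 of 15 alternatives, among them each library left out (0.0835, 0.102 and 0.132 for siScrambled replicates 1, 2 and 3, and 0.0648, 0.0859 and 0.0707 for siSirt7).

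The partners of these chaperones were not called. Timm9 and Timm10, which form the hexamer that carries metabolite carriers, were at 5.46 ± 2.20 and 6.96 ± 1.09 FPKM and at 9.87 ± 1.92 and 9.24 ± 1.12 (SD, n = 3). Timm9 is spread over 4 listed transcripts, its siScrambled libraries differing more than 2-fold, from 3.50 to 7.84 FPKM. Timm13, partner of the Tim8 proteins, was at 13.3 ± 1.46 and 14.6 ± 1.63 FPKM (limma adjusted p = 0.457), and the log2 ratio of Timm8b to Timm13 was 2.69 ± 0.17 and 2.78 ± 0.08 (two-sided exact permutation p = 0.5).

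Timm29, a subunit of the TIM22 carrier translocase described in human cells, was the only member that fell, from 9.51, 9.17 and 10.4 FPKM to 8.44, 7.65 and 7.06. Each siSirt7 library was below each siScrambled one (log2 fold change -0.29, SE 0.08, limma adjusted p = 0.0456). The channel subunit Timm22 was at 10.3, 10.3 and 10.7 FPKM and at 8.97, 9.47 and 7.38, also with the groups apart, but was not called (log2 fold change -0.26, 95% interval -0.48 to -0.03, adjusted p = 0.0961). The call of Timm29 was lost without siScrambled replicates 1, 2 and 3 (adjusted p = 0.101, 0.0750 and 0.127) and siSirt7 replicates 2 and 3 (0.110 and 0.110). It was also lost with the replicate block (0.106), after quantile normalization (0.0597) and with transcripts tested alone (0.120).

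**Figure D3:**
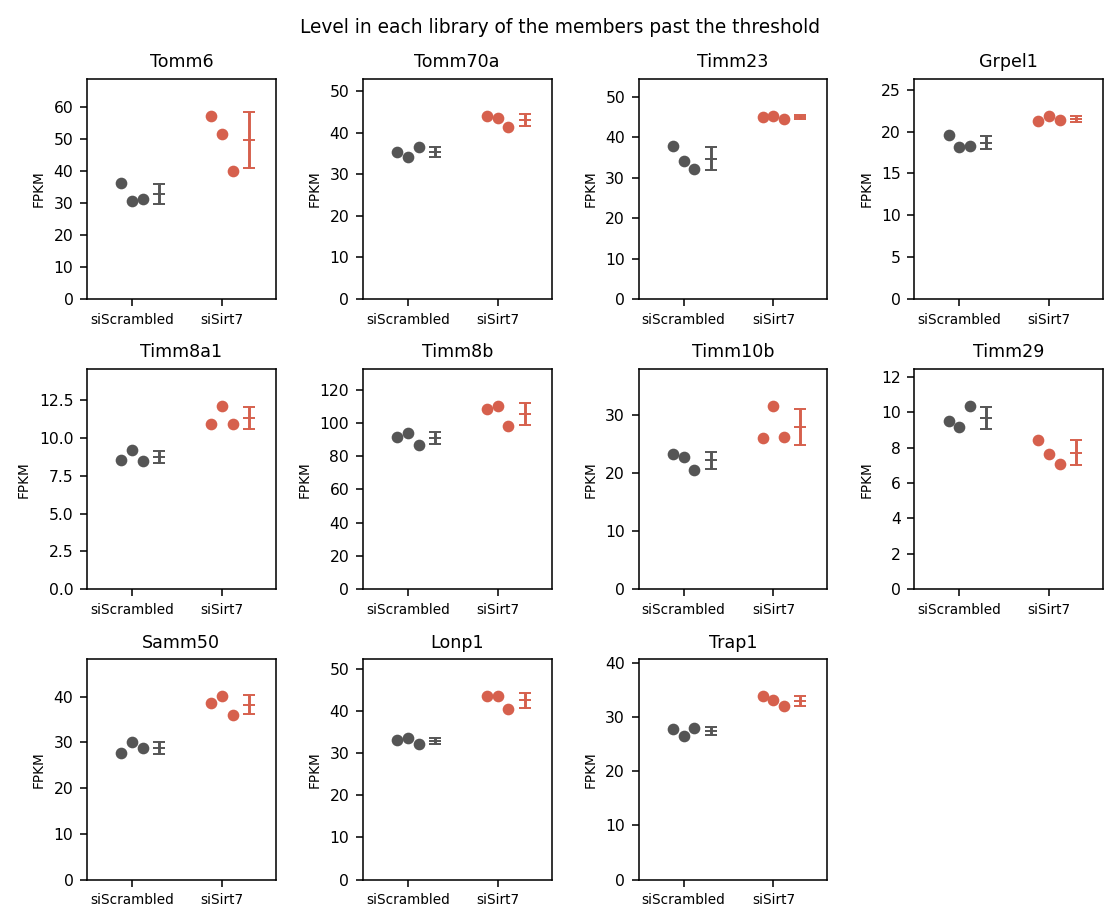
FPKM in each library of the 11 members past the threshold, with the group mean and SD beside the points; each axis starts at 0. In all 11 panels the points of the groups do not overlap, and Timm29 alone is lower with siSirt7.

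The barrel insertion gene Samm50 rose most among the steady calls. SAMM50, the core of the outer membrane sorting machinery, had its transcript at 27.6, 30.2 and 28.8 FPKM with siScrambled and at 38.7, 40.2 and 36.0 with siSirt7 (chromosome 15, 84192233 to 84214303, plus strand). The groups were well apart, a 1.33-fold rise (log2 fold change 0.39, SE 0.06, 95% interval 0.26 to 0.53, limma adjusted p = 0.00482). Chchd4, the oxidoreductase that traps cysteine-rich proteins in the intermembrane space, was at 2.90 ± 0.43 and 3.12 ± 0.24 FPKM (adjusted p = 0.615). Presequence processing genes did not pass the test. Pmpca and Pmpcb, the subunits of the matrix processing peptidase, were at 29.0 ± 0.44 and 28.0 ± 0.92 FPKM and at 25.1 ± 4.61 and 24.7 ± 2.39, and the inner membrane peptidase gene Immp1l at 13.7 ± 1.36 and 15.3 ± 1.77. Their log2 fold changes were -0.05, -0.008 and 0.15, with adjusted p from 0.359 to 0.973. Immp1l matches a processed pseudogene, Gm8121, at 99.0% identity over 52.3% of its transcript, and that copy was not analysed here. Exons of Inpp5e on the opposite strand overlap 27.9% of the main transcript of Pmpca.

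In the matrix, Lonp1 and Trap1 rose while the subunits of the CLPXP protease leaned in opposite directions. Lonp1, the main ATP-dependent protease of the matrix (chromosome 17, 56614301 to 56626903, minus strand), stood at 33.2, 33.6 and 32.1 FPKM with siScrambled and at 43.6, 43.6 and 40.6 with siSirt7. It rose 1.29-fold with the smallest adjusted p of the set (log2 fold change 0.36, SE 0.04, limma adjusted p = 0.00288). Trap1, the matrix HSP90, rose 1.202-fold from 27.8, 26.6 and 28.1 FPKM to 33.9, 33.2 and 32.0 (log2 fold change 0.26, SE 0.04, adjusted p = 0.00815). In both genes the lowest siSirt7 library, replicate 3, was clearly above every siScrambled library.

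Clpp, the peptidase chamber, was at 14.3, 14.7 and 13.8 FPKM and at 13.3, 10.7 and 11.4 (log2 fold change -0.26, limma adjusted p = 0.0743, and 0.0215 without siSirt7 replicate 1). Clpx, the unfoldase that feeds it, was at 14.32, 12.8 and 13.2 FPKM and at 14.35, 16.1 and 16.3 (log2 fold change 0.20, adjusted p = 0.0907). Neither gene was called, though in each the groups did not overlap, in Clpx only just. A further transcript, Clpx-203, too low to be tested, was at 1.98 FPKM in siSirt7 replicate 2 and at 0.06 to 0.50 in the other libraries. Without Clpx-203, siSirt7 replicate 2 would lie below siScrambled replicate 1, so the gap in Clpx rests on that transcript. The log2 ratio of Clpp to Clpx within a library was 0.08 ± 0.09 with siScrambled and -0.38 ± 0.24 with siSirt7 (SD, n = 3). That difference of -0.46 was the largest of the 10 ratios compared, with the groups apart (two-sided exact permutation p = 0.1, the smallest possible, adjusted 0.5).

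**Figure D4:**
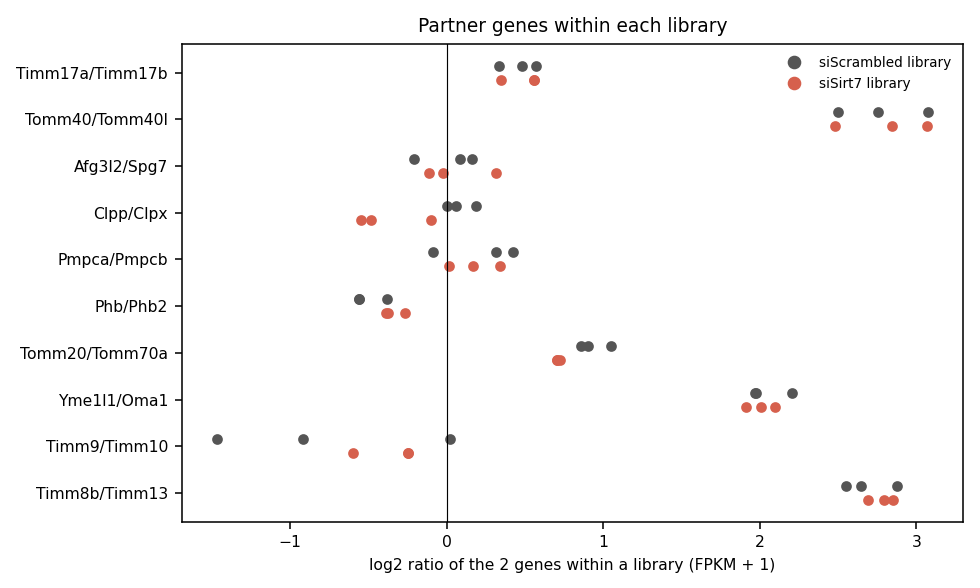
Log2 ratio of 2 partner genes within each library, on FPKM + 1, for 10 pairs of members (grey, siScrambled; red, siSirt7). The groups are apart for Clpp/Clpx and Tomm20/Tomm70a and overlap for the other 8 pairs.

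The proteases of the inner membrane were not called. Afg3l2 and Spg7, which encode subunits of the matrix-facing AAA protease, were at 17.9 ± 0.60 and 20.0 ± 0.83 FPKM and at 17.8 ± 2.10 and 19.3 ± 2.38. Afg3l2 had its groups apart (log2 fold change 0.16, limma adjusted p = 0.0757), while Spg7 had in siScrambled replicate 3 a transcript, Spg7-211, at 4.40 FPKM that was listed at 0 in the other 5 libraries. Yme1l1, which faces the intermembrane space, was at 27.0 ± 0.90 and 29.3 ± 1.601 FPKM, and the stress-activated protease Oma1 at 5.76 ± 0.49 and 6.58 ± 0.86 (adjusted p = 0.171 and 0.322). Htra2, an intermembrane serine protease, was below the level tested, its 1 listed transcript being at 0, 0.53 and 0 FPKM with siScrambled and at 0.59, 0.31 and 0.97 with siSirt7.

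The prohibitins, which form the ring scaffold around these proteases, differed in their values. Phb was at 28.2, 27.2 and 27.9 FPKM and at 32.3, 31.5 and 29.3, with the groups apart and no call (log2 fold change 0.15, limma adjusted p = 0.0661, and 0.0356 without siSirt7 replicate 3). Phb2 was at 42.1, 35.8 and 41.5 FPKM and at 42.2, 41.5 and 35.5, overlapping fully (log2 fold change -0.005, 95% interval -0.23 to 0.22, adjusted p = 0.978). Phb has a processed pseudogene copy, Gm7666, that matches 45.5% of its transcript at 99.9% identity and was not analysed here.

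Tested as single transcripts, 6 of 53 member transcripts rose (against 4.68% of all 17414 transcripts tested) and 0 fell (against 4.31%). All 6 belong to members with 1 listed transcript, Tomm70a-201, Timm23-201, Timm8a1-201, Samm50-201, Lonp1-201 and Trap1-201. Their values are those of the gene, so these calls repeat the gene result and add no separate support. The shares over all transcripts include those of genes with several. Of the 27 tested transcripts of members with several, 0 were called by limma. Several of these members had libraries in which 1 transcript gave way to another. Tomm34-201 was at 1.91 FPKM in siSirt7 replicate 1 and from 9.09 to 10.9 in the other 5 libraries, and Tomm34-202 at 13.1 against 5.48 to 7.19. Clpx-201 was at 11.2 FPKM and Clpx-202 at 1.46 in siScrambled replicate 3, the reverse of the other siScrambled libraries, where they were at 4.57 and 4.67 and at 9.65 and 8.09. With siSirt7, Clpx-201 was also above Clpx-202 in replicate 2 (7.36 and 6.79 FPKM), but not in replicates 1 (4.66 and 9.56) and 3 (4.45 and 11.75). Within its group, each of these shifts appears in 1 library and not in the replicates.

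The 7-base words ATATGTA and TATGTAA had been tied to lower fold changes in an earlier analysis of these same data. The medians and counts below are therefore no independent test of these words. They were in the 3' UTR of 8 of the 40 tested members (20.0%, against 22.9% of 10323 tested genes with a 3' UTR of at least 50 bases). The holders were Samm50, Timm10, Timm17a, Timm22, Timm29, Chchd4, Tomm20 and Yme1l1. Their median log2 fold change was 0.02, with Samm50 higher and Timm29 lower, and that of the 32 members without either word was 0.15, with 9 higher and 0 lower. Over all tested genes the medians were -0.11 and 0.03. Of the 2363 tested genes that held a word, 168 rose and 599 fell, and of the 7960 without, 1170 rose and 718 fell. Apart from Timm10 (222 bases), the members that held a word had 3' UTRs of 2132 to 6705 bases. Of the tested members without either word, only Tomm70a (3969 bases) and Grpel1 (2678 bases) exceeded 2132 bases. A longer 3' UTR has more places for a 7-base word, and the part of its length was not tested. A further word searched, CGGAGAA, was in 2 members (5.0%, against 2.2% of tested genes). They were Tomm40l, which was not called, and Timm29, which fell and also held ATATGTA. Among all tested genes 227 held CGGAGAA, and of these 74 rose and 17 fell. Their median change on the log2 scale was 0.15. Holders of CGGAGAA thus rose more often than they fell, unlike Timm29.

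Outside the set, 39 of 40 further genes of import, folding, quality control and stress transcription were measured. This list was chosen with earlier results of these data known, so its counts are no independent support. Of the 39, 9 rose (23.1%, against 12.7% of all tested genes), Atf5 and Cebpb among them, and 2 fell (5.13%, against 12.5%). The log2 fold changes of the 39 had a median of 0.03. The matrix chaperones stood out by level. Hspd1, the HSP60 chaperonin, rose 1.63-fold from 149.5, 140.8 and 151.1 FPKM to 228.3, 244.6 and 246.5 (log2 fold change 0.70, SE 0.04, limma adjusted p = 0.000326). Hspa9, the HSP70 of the import motor, rose from 203.5 ± 0.482 to 264.9 ± 0.55 FPKM (log2 fold change 0.38, adjusted p = 0.000297), and Hspe1, the co-chaperonin, from 205.2 ± 2.31 to 243.8 ± 12.6 (0.25, adjusted p = 0.00866). The transcription factor genes Atf5 and Cebpb, which act in stress responses, rose 1.32-fold and 1.503-fold, while Atf4 (0.11, adjusted p = 0.0599) and Ddit3 (-0.12, adjusted p = 0.164) were not called.

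Among the remaining calls, Timmdc1, an assembly factor of respiratory complex I related to the Tim17 family, rose 1.40-fold from 13.6 ± 0.92 to 19.0 ± 1.21 FPKM (limma adjusted p = 0.00600). Nln (an oligopeptidase), Stoml2 (a prohibitin relative) and Letm1 (an inner membrane ion exchange protein) rose 1.43-fold, 1.31-fold and 1.21-fold. Mtx2, a metaxin that works beside SAMM50 on the outer membrane, fell 1.55-fold from 11.3, 12.9 and 11.2 FPKM to 8.16, 7.77 and 6.96 (log2 fold change -0.57, SE 0.08, adjusted p = 0.00517), opposite to Samm50. Lactb, a filament-forming protease-like protein, fell 1.37-fold with an adjusted p of 0.0495. The calls of Hspd1, Hspa9, Hspe1, Atf5, Cebpb, Timmdc1 and Mtx2 were kept under all 15 alternatives.

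The other 4 calls were not. Nln had a limma adjusted p of 0.0501 and 0.0550 without siScrambled replicate 1 and siSirt7 replicate 1, and 0.0755 with single transcripts. Stoml2 had 0.0743 and 0.0545 without siScrambled replicates 1 and 2, and 0.0741, 0.0825 and 0.0687 without siSirt7 replicates 1, 2 and 3. It had 0.0652 with the replicate block and 0.0796 with single transcripts. Letm1 had 0.0617, 0.0729 and 0.0614 without siScrambled replicates 1, 2 and 3, and 0.0632 and 0.0612 without siSirt7 replicates 1 and 3. It had 0.0601 with the replicate block and 0.0639 with single transcripts. Lactb was not called in any fit with a library left out (0.0645 to 0.127), and was called in 1 of 15 alternatives.

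**Figure D5:**
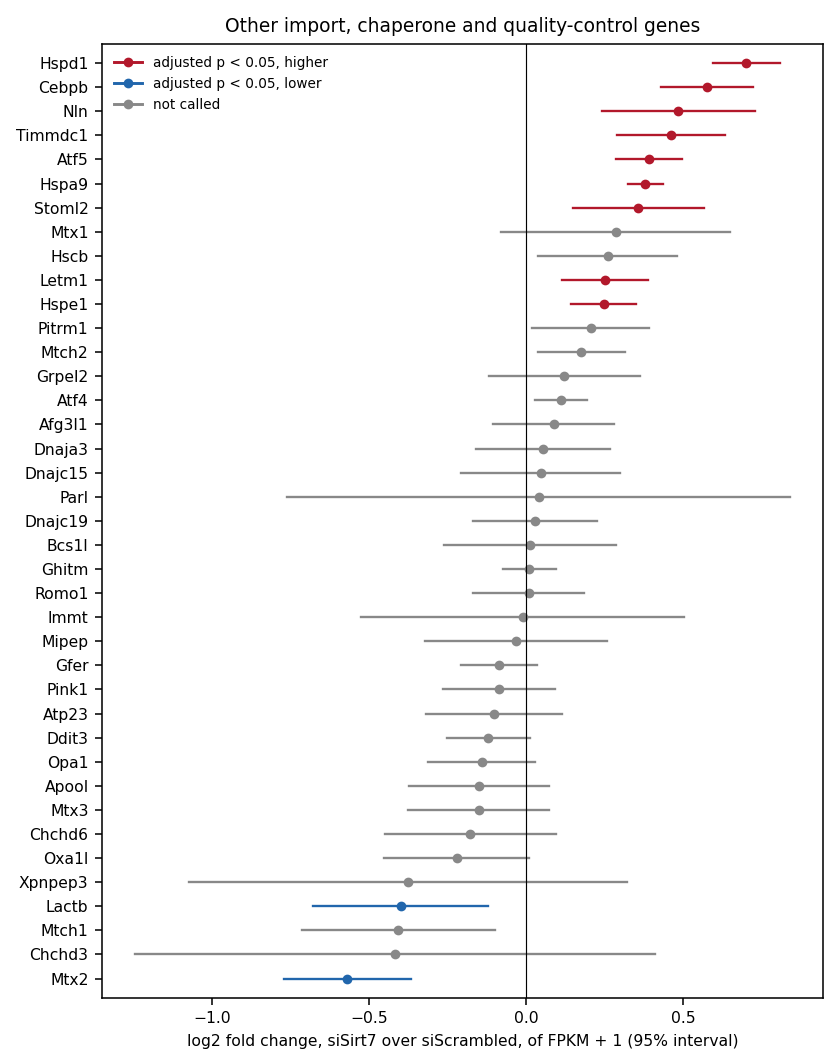
Log2 fold change (siSirt7 over siScrambled, on FPKM + 1) with its 95% limma interval for the 39 other import, chaperone, quality-control and stress transcription genes, sorted by value (red rose, blue fell, grey not called). Hspd1 lies at the top at 0.70 and Mtx2 at the bottom at -0.57.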

How the data were processed

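RNA from 6 libraries, 3 siScrambled and 3 siSirt7, was sequenced by the authors after mRNA library preparation, per the labels' protocols. The deposited values are FPKM, 1 value per transcript and library, per the file headers. The submitters' processing notes name HISAT2 and the genome build GRCm38 (mm10). Its version and the quantifier, annotation, strand setting and handling of shared reads behind the FPKM were not given in the sources used here. Each listed transcript reaches a mean of 0.5 FPKM in at least 1 group. A check for steps of whole reads found no depth at which most low values were whole numbers. At best 34.25% to 36.75% of 400 low values per library came within 0.1 of a whole number. Values close to 0 counted as whole, and the share to be met without such steps was not worked out. The check therefore cannot settle whether steps are present, and depth and counting error are unknown.

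Transcripts were summed to genes and tested with limma 3.58.1 (trend and robust options, R 4.3.3) on log2(FPKM + 1), for genes averaging 1 FPKM or more, with Benjamini-Hochberg adjustment over all 10854 genes. Groups were taken from sample titles. Ratios of partner genes were compared by exact permutation over samples. Transcript sequences and gene models came from GENCODE vM21 (GRCm38), near copies from blastn 2.17.0 (identity of at least 95% over at least 30% of the main transcript), and promoters from RefSeq (GRCm38.p6). Plots and tables used Python 3.11.15, numpy 2.4.6, pandas 2.3.3 and matplotlib 3.10.9. The fit was tested on simulated data. Alternatives were a filter at 5 FPKM or none, a pseudocount of 0.1 or 0.5, scaling by median of ratios or by quantiles, limma without both options, a replicate block, transcripts tested singly and each library left out. The members, gene lists, ratios and DNA words were chosen with earlier results of these data known. Values are given in every library for each called member and for the 5 most abundant members not called. Words were searched in 3' UTRs of the transcript with the highest level in each gene.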

Additional observations from a re-analysis of the deposited data

How the results depend on the processing

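The numbers of members that rose and fell were 10 and 1, and 6 and 0 with single transcripts. Under quantile normalization and with the replicate block 0 fell (7 and 8 rose), and over the libraries left out 5 to 11 rose and 0 to 2 fell. Of the other import and quality-control genes, 1 in place of 2 fell with median-of-ratios scaling, no filter, pseudocounts of 0.1 and 0.5, limma without its options and single transcripts, and 1 to 2 with a library left out. Over all tested genes 1388 were called with single transcripts, 1927 with the replicate block and 1847 to 2217 with a library left out, against 2736. The log2 fold change of Sirt7 was -1.30 (limma adjusted p = 0.0697) for its main transcript. Partner ratios with groups apart numbered 2, and 2 to 5 with a library left out (5 without siScrambled replicate 2). A filter at 5 FPKM gave no value for Sirt7, Chchd4 and Tomm40l. The deviations of same-numbered libraries from their group means correlated at 0.007, 0.03 and -0.01. With 3 libraries in each group this cannot tell whether the replicate numbers pair the samples.

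No called member changed direction. Of the members not called, 10 changed sign in at least 1 alternative. With single transcripts Tomm5 was at -0.37 and Timm9 at -0.069, after quantile normalization Timm17a was at 0.012, and with median-of-ratios scaling Phb2 was at 0.0012. With a library left out, the log2 fold change ran from -0.042 to 0.39 for Tomm5, from -0.025 to 0.28 for Tomm40l, from -0.037 to 0.037 for Tomm34, from -0.044 to 0.0059 for Timm17a and from -0.10 to 0.0196 for Timm17b. It ran from -0.0199 to 0.20 for Timm44, from -0.23 to 0.0304 for Timm10, from -0.11 to 0.13 for Pmpcb and from -0.077 to 0.072 for Phb2. The causes were not tested. Read depth is unknown, so counting error could not be separated from the spread between libraries.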
